A study of Mus musculus with 12 samples.

Results

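Matrix metalloproteinases and their inhibitors were followed across 4 states of HT22 cells, an immortalized line labelled as mouse hippocampal neuron cells. The group held 10 genes of the 24343 used: the proteases Mmp14, Mmp2, Mmp3, Mmp9, Mmp13 and Mmp15, the tissue inhibitors Timp1, Timp2 and Timp3, and the membrane-anchored inhibitor Reck. They were picked by name, with Mmp14 placed first because its low level after Ncoa4 knockdown was already known, so that fall is described here and not tested. The members, and the lists of related genes used further on, were chosen with earlier results of these data known. Their calls and counts therefore cannot be taken as independent of that choice. RNA-seq was available from 12 libraries, 3 biological replicates in each of 4 groups. Cells received control siRNA (siControl) or siRNA against Ncoa4 (siNCOA4), carried in by liposomes, and were kept at normal iron or deprived of it for 24 h by 100 µM of the chelator DFO (siControl+DFO and siNCOA4+DFO). Every group therefore carried a transfected siRNA. NCOA4 is the cargo receptor that delivers ferritin to the lysosome for iron release.

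Matrix metalloproteinases are zinc-dependent endopeptidases that cut collagens, other matrix proteins and cell-surface proteins. Most are made as inactive precursors. MMP14 is anchored in the plasma membrane, cleaves fibrillar collagen, and activates the precursor of the secreted gelatinase MMP2 in a complex in which TIMP2 bridges both proteases. TIMPs bind the active site of the mature enzymes, so the same TIMP2 that helps to activate MMP2 also blocks MMP14 when it is abundant. In the nervous system the family is known for remodelling of perineuronal matrix, neurite outgrowth and synaptic plasticity. These are properties of the proteins, and the values described here are of transcripts only. The same study also profiled proteins. Its supplement lists MMP14 and the tetraspanin CD151 among proteins that differed with NCOA4 depletion, without a direction in that list.

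Levels are in FPKM (fragments per kilobase of transcript, relative to all mapped fragments of the library), which is scaled for gene length, so that levels of different genes can be set side by side. Of the 10 genes, 6 passed the filter for testing (0.5 FPKM or more in 3 or more libraries): Mmp14, Mmp2, Timp1, Timp2, Timp3 and Reck. Each of the 6 was above 0 in every library, with 0.756 FPKM as the lowest value. Mmp3 was listed at 0 in all 12 libraries. Mmp9, Mmp13 and Mmp15 were listed above 0 in 7, 5 and 5 libraries.

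Ncoa4 was lower in every siNCOA4 library than in every siControl library, at normal iron (log2 fold change −2.71, adjusted p = 1.25e-05, limma) and under DFO (−2.67, adjusted p = 2.83e-05, limma). Depth relative to siControl replicate 1 lay between 0.928 and 1.41, as read from the step between neighbouring low FPKM values, and libraries of 1 group correlated at 0.926 to 0.955. Few neuronal markers were detected: of the 9 listed, 1 (Tubb3) reached a group mean of 1 FPKM, and Rbfox3, Map2, Snap25 and Dcx were at 0 in all siControl libraries. The neuronal synapsin Syn1, not on this list, was at 4.08 to 6.61 FPKM in the 12 libraries. The synapsins Syn2 and Syn3 were at 0 to 0.163 and 0 to 0.522 FPKM. Syn1 overlaps Timp1 on the opposite strand, so fragments of the pair may not be told apart, as described below. All 6 markers of fibroblasts and mesenchyme, among them Thy1, which neurons also make, were above 1 FPKM in every group. Their summed level was 3119 to 3544 FPKM in siControl, 2311 to 2509 in siNCOA4, 1854 to 1934 in siControl+DFO and 1641 to 1832 in siNCOA4+DFO. The neuron markers summed to 7.68 to 8.75 FPKM in siControl and rose to 12.2 to 13.6 in siControl+DFO. The astrocyte, oligodendrocyte and microglia sums fell with DFO by a larger factor than the fibroblast sum. The 4 astrocyte markers summed to 36.4 to 46.0 FPKM in siControl and 22.5 to 26.7 in siNCOA4. The sum was 3.18 to 5.42 in siControl+DFO and 6.95 to 15.1 in siNCOA4+DFO. It was mostly Slc1a3, with Gfap and Aqp4 at 0 in siControl. The 5 markers of the oligodendrocyte lineage summed to 19.9 to 22.5, 12.8 to 13.8 and 4.03 to 5.16 FPKM, mostly Pdgfra, with Olig1 and Olig2 at 0 in all libraries, and the 5 of microglia to 10.1 to 11.8, 3.79 to 5.72 and 1.09 to 1.73 FPKM, with Aif1, Cx3cr1 and Ptprc at 0 in siControl. The part of these shifts in the changes below was not tested, and in bulk RNA fewer cells of a type and less RNA per cell cannot be told apart.

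The promoters of 4 members whose levels changed with DFO (Mmp14, Timp2, Timp3 and Timp1) and that of Mmp3, listed at 0 throughout, are shown first, because the regulators known for these genes are described further on. Windows of 300 bases, 250 before the annotated start and 50 after it, were taken from RefSeq (GRCm38.p6), which held 8 of the 10 members. Mmp2 and Mmp9 had no entry. Each is printed 5′ to 3′ on the gene's own strand. Capitals mark 3 short motifs on either strand: the AP-1 motif (TGAGTCA), the GC box bound by SP1 (GGGCGG) and the core of the hypoxia response element (ACGTG).
Mmp14, chr14:54431348-54431647, plus strand: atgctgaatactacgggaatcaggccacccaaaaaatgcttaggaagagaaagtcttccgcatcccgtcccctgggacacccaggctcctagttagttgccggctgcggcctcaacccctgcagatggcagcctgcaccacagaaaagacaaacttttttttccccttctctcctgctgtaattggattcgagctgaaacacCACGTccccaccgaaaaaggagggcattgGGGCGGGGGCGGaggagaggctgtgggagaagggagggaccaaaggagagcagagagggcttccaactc
Timp2, chr11:118355362-118355661, minus strand: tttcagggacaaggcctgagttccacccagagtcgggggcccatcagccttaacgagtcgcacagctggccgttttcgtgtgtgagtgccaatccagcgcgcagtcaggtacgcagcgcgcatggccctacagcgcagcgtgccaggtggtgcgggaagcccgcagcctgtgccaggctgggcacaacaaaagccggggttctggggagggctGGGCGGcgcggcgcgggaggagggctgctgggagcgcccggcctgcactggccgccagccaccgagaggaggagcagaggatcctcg
Timp3, chr10:86300162-86300461, plus strand: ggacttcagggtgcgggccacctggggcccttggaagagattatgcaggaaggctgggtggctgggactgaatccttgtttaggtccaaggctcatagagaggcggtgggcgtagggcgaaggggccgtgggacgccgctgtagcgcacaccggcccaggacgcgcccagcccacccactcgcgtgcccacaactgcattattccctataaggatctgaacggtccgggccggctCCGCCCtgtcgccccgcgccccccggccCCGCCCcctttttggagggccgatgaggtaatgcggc
Timp1, chrX:20869916-20870215, plus strand: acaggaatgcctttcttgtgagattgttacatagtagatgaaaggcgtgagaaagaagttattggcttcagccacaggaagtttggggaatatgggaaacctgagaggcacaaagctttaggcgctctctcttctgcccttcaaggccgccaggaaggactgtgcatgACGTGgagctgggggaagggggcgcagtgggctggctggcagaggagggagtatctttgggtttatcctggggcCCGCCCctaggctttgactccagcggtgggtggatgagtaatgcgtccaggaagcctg
Mmp3, chr9:7445572-7445871, plus strand: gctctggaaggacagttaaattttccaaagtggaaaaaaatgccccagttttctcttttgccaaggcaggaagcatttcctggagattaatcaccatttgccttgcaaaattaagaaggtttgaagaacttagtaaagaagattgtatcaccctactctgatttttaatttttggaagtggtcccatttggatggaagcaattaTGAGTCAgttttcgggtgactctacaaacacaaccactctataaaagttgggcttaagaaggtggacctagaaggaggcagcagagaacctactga

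The GC box was in 35.7% of all 32851 mouse promoter windows, the hypoxia core in 19.6% and the AP-1 motif in 5.20%. Mmp14 held 2 adjacent GC boxes starting 19 and 13 bases before the annotated start and 1 hypoxia core, and Timp1 held 1 GC box and 1 hypoxia core. Timp2 held 1 GC box and Timp3 held 2. The GC box was also found in members without a DFO call: 3 copies in Reck and 1 in Mmp15, which was not tested. An AP-1 motif was found in the windows of Mmp3 and Mmp13, and each of these windows also held a TATA box (TATAAA, in 13.6% of all windows). The CCAAT box (CCAAT, in 37.4% of all windows) was found in 2 copies in Mmp14, 1 of which overlapped a GC box, and in 1 copy each in Timp1, Timp2 and Reck. These matches describe the letters of the windows and do not show that a factor is bound.

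Mmp14 (GRCm38 chromosome 14, 54431612 to 54445364, plus strand) was the most abundant metalloproteinase of untreated cells. Its level was 152, 133 and 132 FPKM in the 3 siControl libraries, and 36.9, 33.1 and 33.9 FPKM in the siNCOA4 libraries. With DFO it was 55.3, 63.0 and 66.6 FPKM in siControl+DFO, and 27.7, 31.4 and 34.9 FPKM in siNCOA4+DFO. The siControl libraries stood above all others, the siControl+DFO libraries stood between, and the 2 groups with Ncoa4 siRNA overlapped each other at the bottom. As group means this was 139 ± 11.4, 34.7 ± 1.98, 61.6 ± 5.76 and 31.4 ± 3.60 FPKM (SD, n = 3 each).

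Mmp14 was thus 4.01-fold lower in siNCOA4 than in siControl, a difference of −2.0 ± 0.10 (SE) in log2(FPKM + 0.1), given without a test. DFO alone lowered Mmp14 2.26-fold (log2 fold change −1.17 ± 0.10, adjusted p = 1.38e-06, limma). The comparison of the knockdown under DFO rests on other libraries: Mmp14 was 1.96-fold lower in siNCOA4+DFO than in siControl+DFO (−0.97 ± 0.10, adjusted p = 1.55e-04, limma), and the groups did not overlap. In cells already treated with Ncoa4 siRNA, DFO moved Mmp14 by −0.15 ± 0.10 (95% interval −0.37 to 0.07, adjusted p = 0.26, limma), and the groups overlapped. The combined treatment stood 4.43-fold below siControl. The 2 single treatments share the siControl libraries. A test of Mmp14 that uses siControl or siNCOA4 libraries shares them with the comparison behind its choice. Such a test is not independent of that choice. The difference between the knockdown effects with and without DFO was 1.03 ± 0.14 in log2. It contains the untested comparison and is given without a p.

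**Figure D1:**
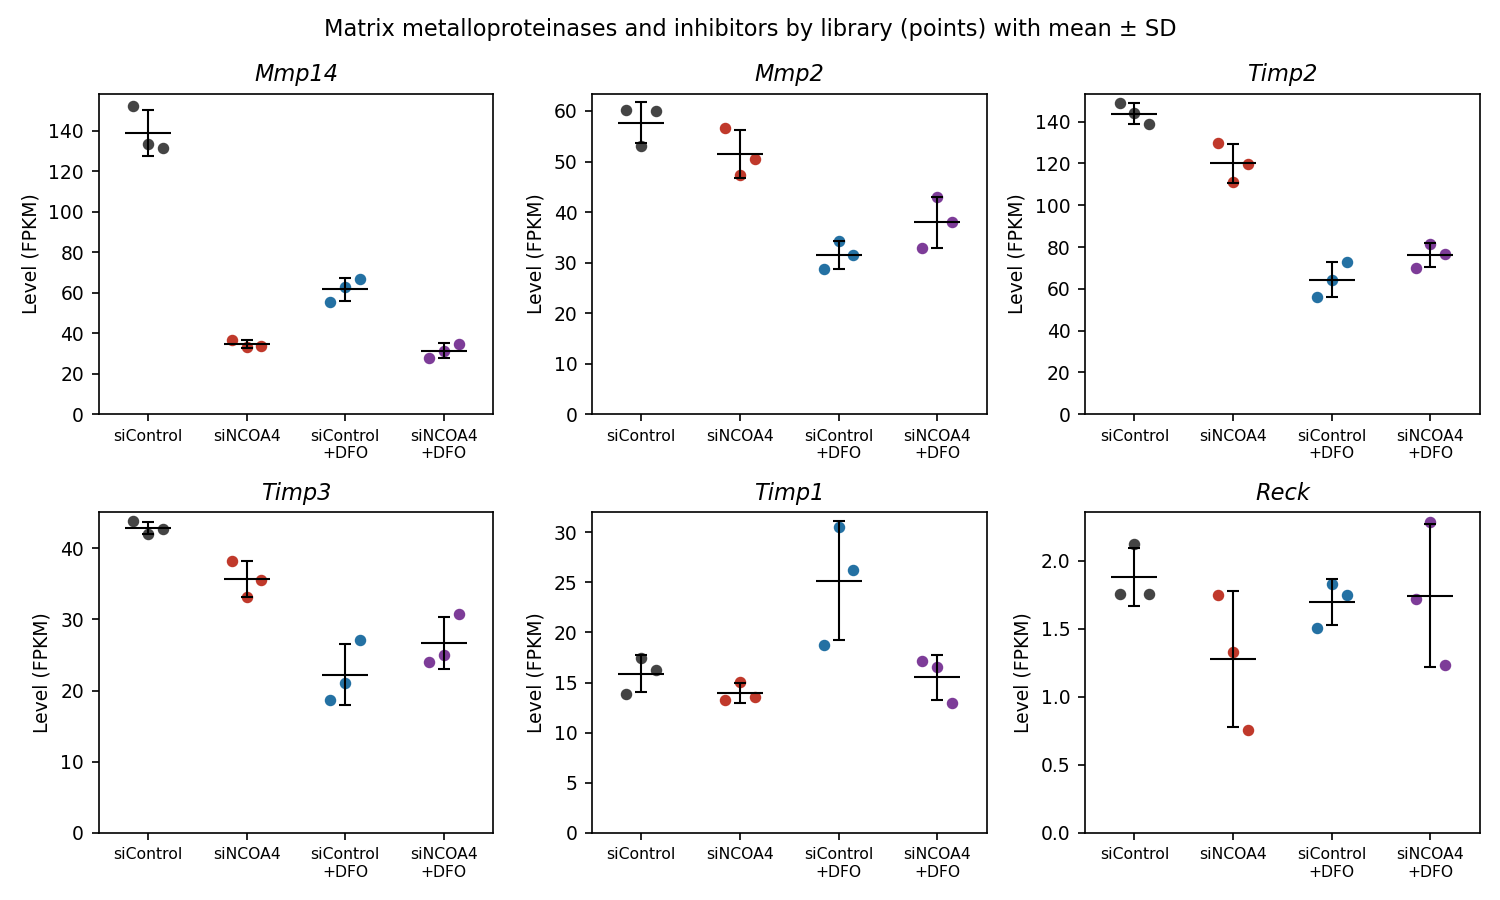
Level in FPKM (y axis, from 0) of the 6 members that were tested, in the 4 groups (x axis); points are libraries, horizontal bars are group means and whiskers are 1 SD (n = 3). Mmp14 in siNCOA4 (33.1 to 36.9 FPKM) lies far below siControl (132 to 152 FPKM), while Mmp2, Timp2 and Timp3 are lowest with DFO and Timp1 is highest in siControl+DFO.

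Mmp2 (chromosome 8, 92827291 to 92853420, plus strand), the gelatinase that MMP14 activates, behaved differently. Its level was 60.2, 53.0 and 60.0 FPKM in siControl and 56.7, 47.4 and 50.4 FPKM in siNCOA4. It was 28.7, 34.2 and 31.5 FPKM in siControl+DFO and 32.8, 42.9 and 38.1 FPKM in siNCOA4+DFO. All 6 libraries with DFO lay below all 6 without it, and the knockdown groups overlapped their controls at either iron state. DFO lowered Mmp2 1.83-fold in siControl cells (−0.87 ± 0.11 in log2, adjusted p = 3.07e-05, limma) and 1.36-fold in siNCOA4 cells (−0.44 ± 0.11, adjusted p = 0.00589, limma). The knockdown difference was −0.17 at normal iron (95% interval −0.40 to 0.07, adjusted p = 0.372, limma) and 0.26 under DFO (0.03 to 0.50, adjusted p = 0.118, limma).

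Of the other proteases of the group, Mmp9 (chromosome 2, 164940780 to 164955850), a gelatinase made by many activated cells, was at 0.108, 0.430 and 0.461 FPKM in siControl. In the other 9 libraries Mmp9 was at 0 in 5, and its highest value anywhere was 0.495 FPKM in siNCOA4 replicate 1, which corresponds to 6 fragments. The collagenase Mmp13 (chromosome 9, 7272514 to 7283331) reached at most 0.110 FPKM, or 1 fragment in a library, and the membrane-type Mmp15 (chromosome 8, 95352268 to 95375080) at most 0.127 FPKM, or 2 fragments. The stromelysin Mmp3 (chromosome 9, 7445822 to 7455975) was listed at 0 in every library. The siControl libraries of Mmp9 lay just above those of siControl+DFO (0 to 0.102 FPKM), and the other comparisons of these 4 genes overlapped. None of the 4 was tested, and no fold is given at so few fragments.

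Timp2 (chromosome 11, 118301069 to 118355740, minus strand), the inhibitor that bridges MMP14 and MMP2, was the most abundant inhibitor. Its level was 149, 144 and 139 FPKM in siControl and 130, 111 and 120 FPKM in siNCOA4. With DFO it was 56.2, 64.0 and 73.1 FPKM in siControl+DFO and 70.2, 81.4 and 76.9 FPKM in siNCOA4+DFO. Every library with DFO lay below every library without it, and siNCOA4 lay below siControl without overlap. The fall with DFO was 2.23-fold in siControl cells (−1.16 ± 0.10 in log2, adjusted p = 1.17e-06, limma) and 1.58-fold in siNCOA4 cells (−0.66 ± 0.10, adjusted p = 2.00e-04, limma). The difference of siNCOA4 from siControl did not pass the test (−0.26, 95% interval −0.48 to −0.05, adjusted p = 0.11, limma).

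Timp3 (chromosome 10, 86300372 to 86349506, plus strand), an inhibitor that stays bound to the matrix and also blocks ADAM proteases, had the same order of groups. It was at 43.8, 42.0 and 42.8 FPKM in siControl and 38.2, 33.2 and 35.6 FPKM in siNCOA4. It was at 18.6, 21.1 and 27.1 FPKM in siControl+DFO and 24.1, 25 and 30.8 FPKM in siNCOA4+DFO. Libraries with DFO lay below those without it, and the 2 groups with DFO overlapped. The fall with DFO was 1.93-fold in siControl cells (−0.96 ± 0.13, adjusted p = 5.68e-05, limma). In siNCOA4 cells it was 1.34-fold (−0.43 ± 0.13, adjusted p = 0.0192, limma), a call lost without siNCOA4 replicate 1 (adjusted p = 0.0696) or siNCOA4+DFO replicate 1 (0.0745) or 2 (0.0644).

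Timp1 (chromosome X, 20870166 to 20874735, plus strand), a secreted inhibitor induced by cytokines and growth factors in many tissues, went the other way. Its level was 13.9, 17.5 and 16.3 FPKM in siControl and 13.3, 15.1 and 13.5 FPKM in siNCOA4. It was 18.7, 30.5 and 26.2 FPKM in siControl+DFO but 17.1, 16.6 and 13.0 FPKM in siNCOA4+DFO. The siControl+DFO libraries stood above every other library, and the other 3 groups overlapped. DFO raised Timp1 1.58-fold in siControl cells (0.64 ± 0.17, adjusted p = 0.00667, limma), whereas its difference in siNCOA4 cells was 0.15 (95% interval −0.22 to 0.51, adjusted p = 0.517, limma). Under DFO, Timp1 was 1.62-fold lower with the knockdown (−0.67 ± 0.17, adjusted p = 0.018, limma). That call was lost without siControl+DFO replicate 2 (adjusted p = 0.0739) or 3 (0.0566), without siNCOA4+DFO replicate 3 (0.0702), or with the compared groups fitted alone (0.0576). The difference between the 2 DFO effects did not pass its own test (−0.49 ± 0.24, adjusted p = 0.30, limma).

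Reck (chromosome 4, 43875530 to 43944806, plus strand), a membrane-anchored protein that restrains several metalloproteinases, was low. It was at 1.75, 2.13 and 1.76 FPKM in siControl, 1.75, 1.33 and 0.756 in siNCOA4, 1.51, 1.83 and 1.75 in siControl+DFO and 1.72, 2.28 and 1.23 in siNCOA4+DFO. Its siNCOA4 libraries lay below the siControl libraries by a narrow margin. No comparison of Reck passed the test, and its knockdown difference was −0.59 (95% interval −1.25 to 0.08, adjusted p = 0.247, limma).

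Timp1 lies within the span of Syn1 and Timp3 within that of Syn3, both on the opposite strand, while Timp2 overlaps Cep295nl and Reck overlaps Gm27265 on the same strand. Libraries were made with a stranded kit, but whether counting used strand is not given in the sources used here, so that fragments of overlapping genes may not be told apart. Syn1 was at 4.08 to 6.61 FPKM and Syn3 at 0 to 0.522 FPKM.

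**Figure D2:**
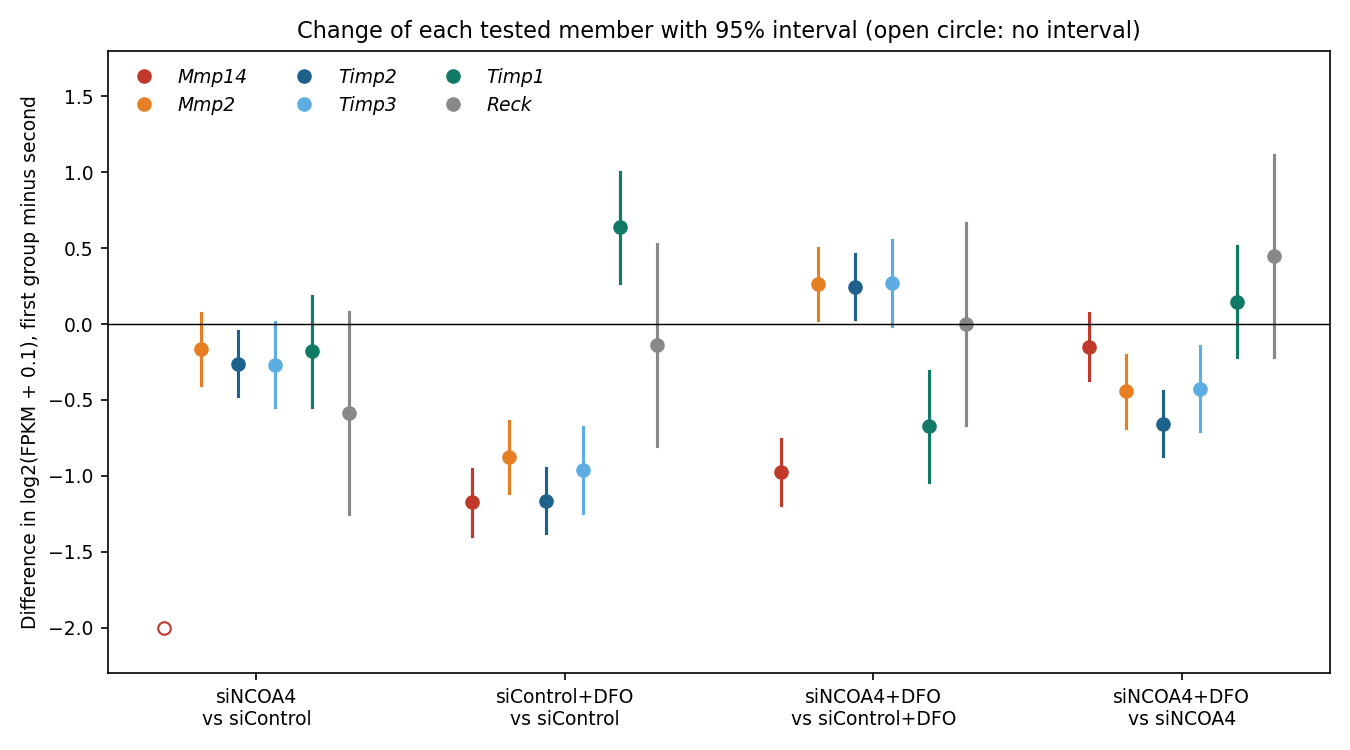
Difference in log2(FPKM + 0.1) (y axis) of the 6 tested members in 4 comparisons (x axis), with 95% intervals from limma as vertical lines; the open circle is Mmp14 in siNCOA4 vs siControl, given without an interval. Mmp14 is at −2.0 with the knockdown alone, at −1.17 with DFO and at −0.97 with the knockdown under DFO, while Timp1 is at 0.64 with DFO and at −0.67 with the knockdown under DFO.

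Counted over the members, siNCOA4 vs siControl called Mmp14, which the choice of members fixes, and 0 of the other 5 tested (limma, with 1 of these 5 at an unadjusted p under 0.05). Of all 11924 genes tested, 4.52% were called higher and 7.21% lower in this comparison. For DFO in siControl cells, 4 of the 6 tested members were called lower (Mmp14, Mmp2, Timp2 and Timp3) and 1 higher (Timp1), beside 25.7% of all genes called lower and 27.7% higher. Without Mmp14, 3 of 5 were lower and 1 was higher. The median log2 fold change of the 6 was −0.92, and that of all genes was −0.01.

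For the knockdown under DFO, 2 of the 6 were called lower (Mmp14 and Timp1) and 0 higher, beside 10.2% and 6.22% of all genes. The median of the 6 was 0.12 (all genes −0.01), since Mmp2, Timp2 and Timp3 had differences of 0.26, 0.25 and 0.27 that did not pass the test (adjusted p = 0.118, 0.105 and 0.177, limma). Each would pass without 1 library: Mmp2 without siNCOA4+DFO replicate 1 (adjusted p = 0.0429), and Timp2 (0.0402) and Timp3 (0.0358) without siControl+DFO replicate 3. For DFO in siNCOA4 cells, 3 were called lower (Mmp2, Timp2 and Timp3) and 0 higher, beside 19.6% and 23.1% of all genes, with a median of −0.29 (all genes −0.00). In siNCOA4+DFO vs siControl, 4 were called lower (Mmp14, Mmp2, Timp2 and Timp3) and 0 higher, beside 23.4% and 25.4% of all genes, with a median of −0.65 (all genes 0.01). Leaving Mmp14 out, 3 of 5 were lower and 0 higher.

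The interaction, the knockdown effect with DFO minus that without it, was called higher in 0.671% and lower in 1.43% of all genes. Apart from Mmp14, 0 of 5 tested members were called (limma), and 3 of the 5 had an unadjusted p under 0.05. These were Timp2 (0.51 ± 0.14, adjusted p = 0.078), Timp3 (0.54 ± 0.18, adjusted p = 0.146) and Mmp2 (0.43 ± 0.15, adjusted p = 0.163, limma). Timp2 would pass without siControl+DFO replicate 3 (adjusted p = 0.0466).

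The order of levels changed with treatment. In siControl, Timp2 (144 FPKM) and Mmp14 (139 FPKM) led and overlapped, followed by Mmp2, Timp3, Timp1 and Reck, each apart from its neighbour. In siNCOA4, Mmp14 ranked behind Timp2, Mmp2 and Timp3 and overlapped Timp3 only. In siControl+DFO, Timp2 (64.4 FPKM) and Mmp14 (61.6 FPKM) led again and overlapped, while Mmp2 overlapped Timp1, and Timp1 overlapped Timp3. In siNCOA4+DFO, Timp2 (76.2 FPKM) stood alone at the top, and Mmp2, Mmp14 and Timp3 overlapped in sequence.

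The ratio of Mmp14 to Timp2 FPKM was 1.02, 0.926 and 0.95 in siControl and 0.985, 0.983 and 0.912 in siControl+DFO. It was 0.285, 0.299 and 0.283 in siNCOA4 and 0.395, 0.386 and 0.455 in siNCOA4+DFO. Ratios with control siRNA overlapped across iron states although both transcripts fell with DFO, and every library with Ncoa4 siRNA was below all of them. Of the summed FPKM of all 23 metalloproteinase genes with deposited values, Mmp14 made up 66.7 ± 1.74% in siControl and 35.5 ± 0.611% in siNCOA4. It made up 57.5 ± 2.70% in siControl+DFO and 37.1 ± 2.40% in siNCOA4+DFO (SD, n = 3). At normal iron, the low ratio and share with Ncoa4 siRNA both contain the Mmp14 fall that the choice of members fixes.

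Summed over all 23 metalloproteinase genes with deposited values, the level was 208 ± 13.3 FPKM in siControl and 97.6 ± 6.85 in siNCOA4. It was 107 ± 8.24 in siControl+DFO and 84.6 ± 7.95 in siNCOA4+DFO. Summed over all 4 TIMP genes, Timp4 included, the level in the same order was 203 ± 4.46, 170 ± 11, 112 ± 16.8 and 118 ± 6.17 FPKM (SD, n = 3). Both sums were lower in all libraries of the 3 treated groups than in siControl, and the TIMP sum was lowest in the groups with DFO. Most of the difference of the protease sum between siNCOA4 and siControl was that of Mmp14 (139 to 34.7 FPKM), which the choice of members fixes. Timp2 made up 71.0% of the TIMP sum in siControl and 57.7% in siControl+DFO.

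**Figure D3:**
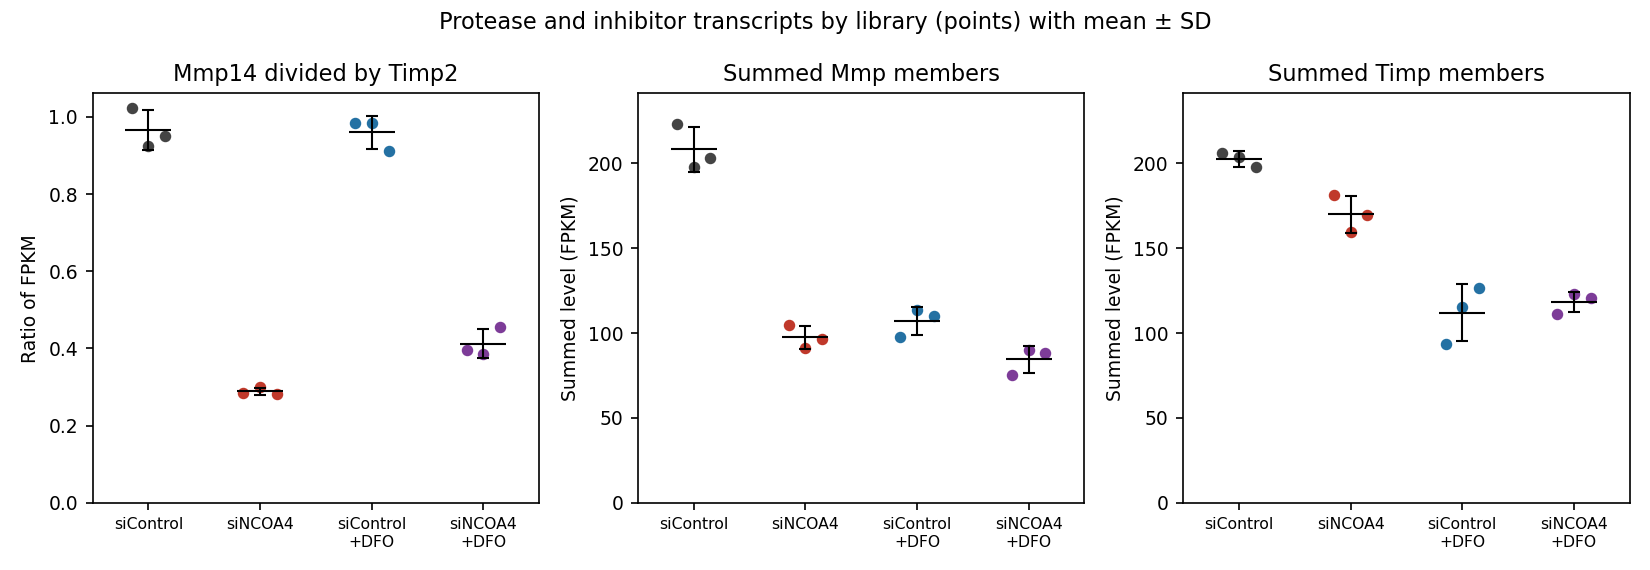
Ratio of Mmp14 to Timp2 FPKM (left), summed FPKM of all 23 Mmp genes (middle) and of all 4 Timp genes (right) in the 4 groups. The panel titles say members, but the sums cover all genes of each family with deposited values. Points are libraries, horizontal bars are means and whiskers are 1 SD (n = 3). The ratio is 0.912 to 1.02 in libraries with control siRNA and 0.283 to 0.455 in libraries with Ncoa4 siRNA. At normal iron this difference contains the fall of Mmp14 for which the gene was put first.

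Across the 12 libraries, the 5 genes most like Mmp14 among 8573 genes with a mean of at least 5 FPKM were 2900097C17Rik (Pearson r = 0.985 of log2 values), Plxna2 (0.979), Mpp1 (0.977), Ankrd52 (0.98) and Ccny (0.972). The points are libraries of 4 groups, so the correlation rests largely on the group means. Mpp1 went from 31.5 ± 3.65 FPKM in siControl to 11.9 ± 0.812 in siNCOA4, 17.0 ± 0.424 in siControl+DFO and 11 ± 1.54 in siNCOA4+DFO. The other members were less like Mmp14: r was 0.471 for Timp3, 0.468 for Timp2, 0.400 for Mmp2 and 0.189 for Timp1.

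**Figure D4:**
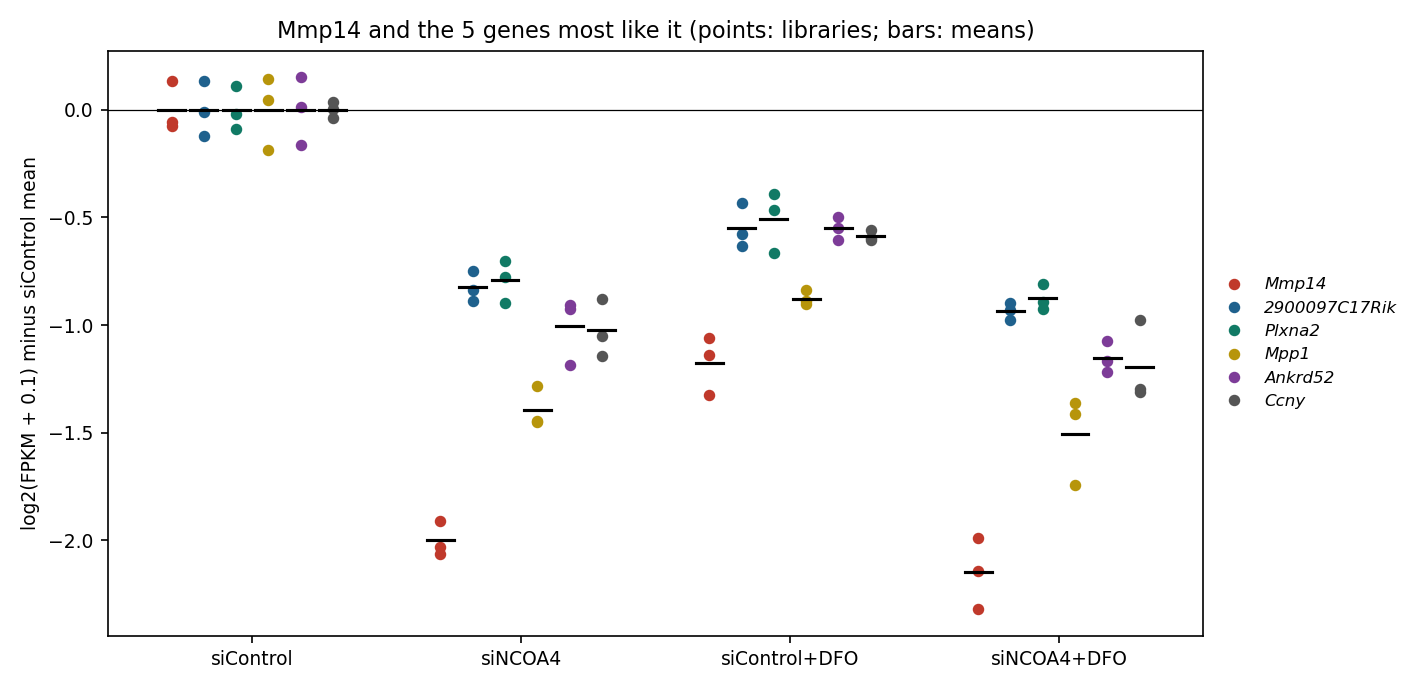
Level in log2(FPKM + 0.1) minus the siControl mean of the same gene (y axis) for Mmp14 and the 5 genes most like it, in the 4 groups (x axis); points are libraries and bars are means. All 6 genes are lowest in siNCOA4 and siNCOA4+DFO and lie between in siControl+DFO, with Mmp14 moving furthest (−2.0 in siNCOA4).

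The files held 23 genes of the metalloproteinase family, of which 10 were at 0 in all libraries and 6 were tested. Of 18 further family members (17 metalloproteinases and Timp4), 4 were tested: Mmp11, Mmp19, Mmp23 and Mmp28. None was called in siNCOA4 vs siControl (limma, 0 of 4 at an unadjusted p under 0.05). Mmp28, a secreted epilysin, rose with DFO from 1.25 ± 0.148 to 3.67 ± 0.699 FPKM (log2 fold change 1.48 ± 0.32, adjusted p = 0.00204, limma). Under DFO it was lower with the knockdown, at 1.72 ± 0.377 FPKM (−1.06 ± 0.32, adjusted p = 0.0427, limma). Mmp11, a stromelysin cut by furin inside the cell, was higher there, at 10.2 ± 0.511 against 7.48 ± 1.01 FPKM (0.45 ± 0.13, adjusted p = 0.0325, limma). Both calls under DFO were lost with several single libraries left out, with adjusted p up to 0.141 without siControl+DFO replicate 2 for Mmp28 and up to 0.109 without siControl+DFO replicate 3 for Mmp11.

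Among 15 tested ADAM and ADAMTS proteases, relatives that shed membrane proteins or cut proteoglycans, 1 was higher and 1 lower in siNCOA4 vs siControl, near the shares over all genes (4.52% and 7.21%). The lower one was Adamts1, which cleaves aggrecan and versican, at 15.6 ± 0.0893 against 46.9 ± 4.21 FPKM (−1.58 ± 0.09, adjusted p = 1.16e-06, limma). The higher one was Adam10, a sheddase of Notch and the amyloid precursor protein, at 49.5 ± 4.08 against 37.6 ± 3.55 FPKM (0.40 ± 0.10, adjusted p = 0.0251, limma), a call lost without any 1 of 4 libraries (adjusted p up to 0.092 without siNCOA4 replicate 1). With DFO 7 were lower and 3 higher (all genes 25.7% and 27.7%), and the falls of Adamts5 (46.1 to 10.6 FPKM) and the procollagen peptidase Adamts2 (14.5 to 4.30 FPKM) were the deepest. Under DFO the knockdown left 3 higher (all genes 6.22%), among them Adamts12 (8.02 ± 1.61 against 4.03 ± 0.672 FPKM, adjusted p = 0.00431, limma), and 1 lower (all genes 10.2%), Adamts1 again (−0.94 ± 0.09, adjusted p = 7.57e-05, limma). List medians were −0.02, −0.24 and 0.16 in these 3 comparisons, and those of all genes 0.00, −0.01 and −0.01.

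Of 8 tested genes for proprotein convertases and the plasminogen system, which activate metalloproteinase precursors, 1 was called in siNCOA4 vs siControl: the urokinase Plau rose from 4.43 ± 0.898 to 9.87 ± 1.35 FPKM (1.15 ± 0.27, adjusted p = 0.0171, limma). That call was lost without siControl replicate 3 or siNCOA4 replicate 2 or 3 (adjusted p up to 0.0646). With DFO 2 rose and 0 fell, beside 27.7% and 25.7% of all genes: the tissue plasminogen activator Plat (6.53 to 33.0 FPKM) and the urokinase receptor Plaur (6.17 to 24.9 FPKM). Under DFO the knockdown lowered 3 and raised 0, beside 10.2% and 6.22% of all genes: the plasminogen-binding pair Anxa2 (−0.69 ± 0.10, adjusted p = 9.90e-04) and S100a10 (−0.55 ± 0.15, adjusted p = 0.0249), and Furin (−0.52 ± 0.11, adjusted p = 0.00946, limma), the convertase that activates MMP14. The call of S100a10 was lost with quantile scaling (adjusted p = 0.0964) and without siControl+DFO replicate 1 (0.0787) or 2 (0.0733) or siNCOA4+DFO replicate 2 (0.0605) or 3 (0.0782). Medians were 0.08, 0.11 and −0.33.

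Of 16 tested partners of MMP14 at the cell surface and in invadopodia, 2 were lower and 1 higher in siNCOA4 vs siControl (all genes 7.21% and 4.52%). The tetraspanin Cd151 went from 47.2 ± 3.46 to 26.2 ± 0.671 FPKM (−0.84 ± 0.14, adjusted p = 0.00291, limma), and Wasl, the actin regulator N-WASP, from 21.9 ± 0.820 to 14.9 ± 0.240 FPKM (−0.55 ± 0.13, adjusted p = 0.0157, limma). The call of Wasl was lost without siNCOA4 replicate 2 (adjusted p = 0.0535) or 3 (0.0511). With DFO 6 rose and 6 fell (all genes 27.7% and 25.7%), led by the hyaluronan receptor Cd44 (29.6 to 87.5 FPKM) and the invadopodium scaffold Sh3pxd2b (21.4 to 8.29 FPKM). Under DFO the knockdown lowered 7 and raised 0 (all genes 10.2% and 6.22%), among them Wasl (−0.59 ± 0.13, adjusted p = 0.0084, limma) and Cd151, whose groups overlapped (−0.47 ± 0.14, adjusted p = 0.041, limma) and whose call was lost without any 1 of 9 libraries, with adjusted p up to 0.13 without siControl+DFO replicate 2. Medians were −0.14, 0.09 and −0.10.

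Of 15 tested matrix proteins that metalloproteinases cut, 3 were lower in siNCOA4 vs siControl (Col1a1, Col1a2 and Fn1) and 1 was higher (Fbn1), beside 7.21% and 4.52% of all genes. Col1a2 went from 1002 ± 96.9 to 580 ± 74.8 FPKM (−0.79 ± 0.13, adjusted p = 0.00237, limma) and Col1a1 from 383 ± 51.8 to 222 ± 28.5 FPKM (−0.78 ± 0.15, adjusted p = 0.00608, limma); both chains form collagen I, the chief substrate of MMP14. With DFO 6 fell and 3 rose (all genes 25.7% and 27.7%), and Col3a1 fell from 289 ± 7.24 to 57.1 ± 7.35 FPKM and Dcn from 7.90 ± 1.41 to 1.73 ± 0.606 FPKM. Under DFO the knockdown raised 3 and lowered 0, beside 6.22% and 10.2% of all genes: Bgn, Col3a1 (57.1 to 95.6 FPKM, adjusted p = 0.0145) and Fbn1 (14.2 to 21.8 FPKM, adjusted p = 0.00384, limma). The call of Col3a1 was lost without siControl+DFO replicate 1 (adjusted p = 0.0578) or with the compared groups alone (0.0574). Medians were −0.20, −0.28 and 0.16. Col1a1, Col1a2 and Col3a1 are also on the list of fibroblast markers whose summed level is given above.

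The list of transcription factors known to act on metalloproteinase genes (AP-1, ETS, EGR, NF-κB, RUNX and EMT factors) held 20 genes, all tested. In siNCOA4 vs siControl 6 were lower and 0 higher (all genes 7.21% and 4.52%), among them Etv5 (2.07 ± 0.326 to 0.673 ± 0.418 FPKM, adjusted p = 0.0043) and Snai2 (22.2 ± 3.18 to 11.3 ± 1.70 FPKM, adjusted p = 0.00166, limma). With DFO 13 rose and 2 fell (all genes 27.7% and 25.7%), and the median log2 fold change was 1.32. The AP-1 subunit Fos went from 0.599 ± 0.303 to 32.4 ± 0.960 FPKM and Fosl1 from 9.11 ± 0.460 to 275 ± 17.7 FPKM. Under DFO the knockdown lowered 10 and raised 0 (all genes 10.2% and 6.22%; median −0.66), among them Egr1 (118 ± 8.40 to 45.3 ± 11.4 FPKM, adjusted p = 7.37e-04) and Junb (131 ± 14.3 to 55.2 ± 16.9 FPKM, adjusted p = 0.00354, limma). Mmp3 and Mmp13, whose promoter windows hold the AP-1 motif, were at no more than 1 fragment in the libraries in which these factors were high. A link between these factors and the levels of the members was not tested.

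**Figure D5:**
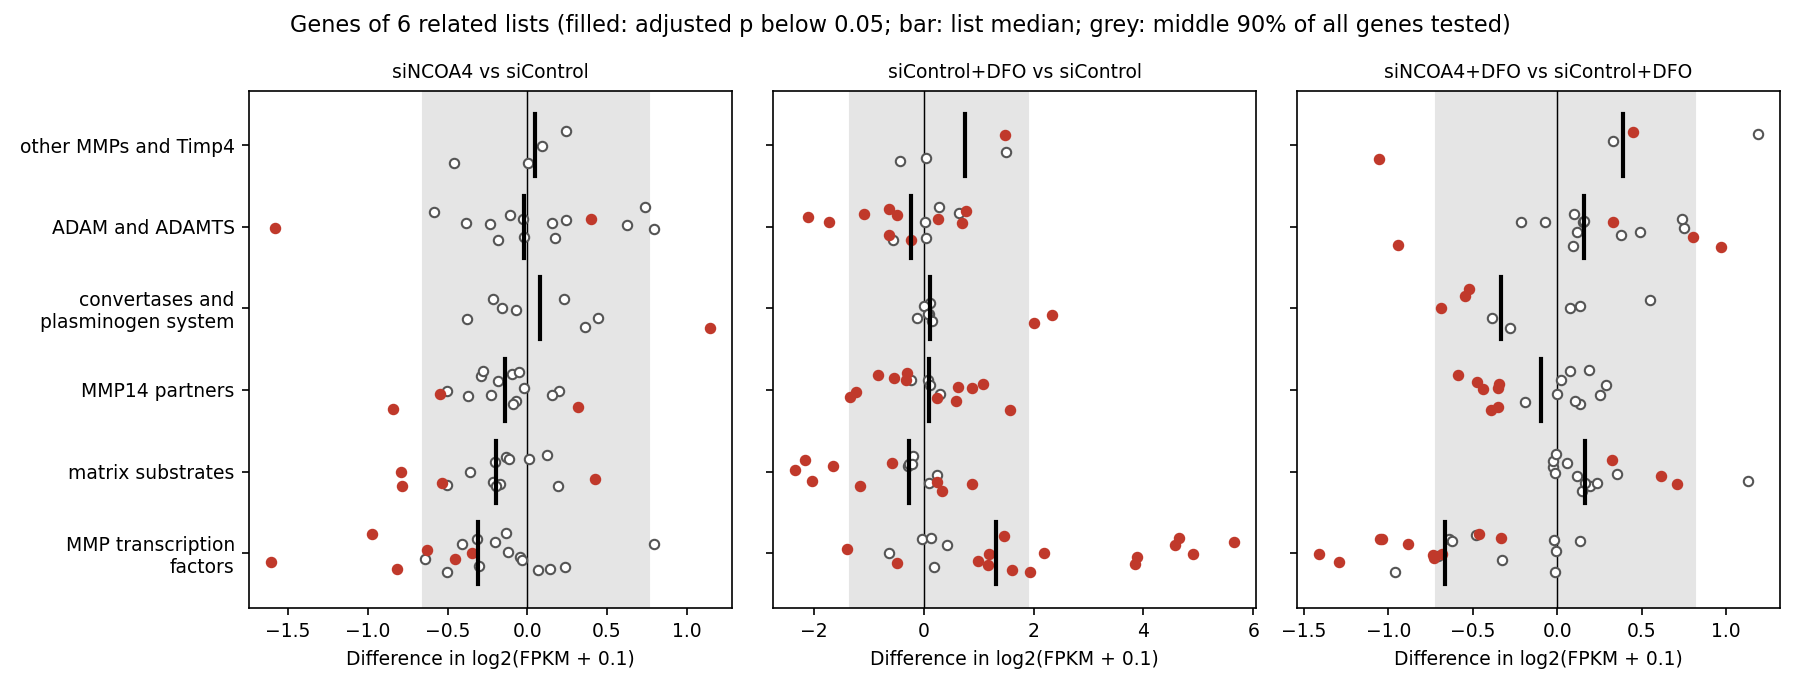
Difference in log2(FPKM + 0.1) (x axis) of each tested gene on 6 lists (rows) in 3 comparisons (panels, each with its own x range); filled points have an adjusted p below 0.05, vertical bars are list medians and the grey band spans the middle 90% of all 11924 genes tested. Transcription factors of metalloproteinase genes are shifted to higher values with DFO (median 1.32) and to lower values with the knockdown under DFO (median −0.66).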

How the data were processed

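RNA from HT22 cells was sequenced in 12 libraries, 3 in each of 4 groups taken from the sample titles. The authors made libraries with a stranded total RNA kit, sequenced read pairs, and deposited FPKM per gene and library, with edgeR named for normalization. The submitters' processing notes list Trimmomatic 0.33, FastQC, HISAT2 2.1.0, featureCounts, edgeR and mm10. The tool that gave the FPKM, the annotation and the strand setting are not given in the sources used here.

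Each table held 24347 entries. The 4 with a shared name were left out, 24343 genes were used, and 6929 were at 0 in all libraries. FPKM holds no total count, so depth is known only relative to 1 library, from the steps of values below 0.6 FPKM, and precision at low levels is set by single fragments. Intervals cover the spread between libraries.

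The members and lists were chosen with earlier results of these data known. Genes with at least 0.5 FPKM in at least 3 libraries (11924) were fitted on log2(FPKM + 0.1) with limma 3.58.1 (R 4.3.3), a means model of all 12 libraries, and moderation with a trend (residual degrees of freedom 8, prior 4.07). Two-sided p-values were adjusted by Benjamini-Hochberg within each comparison over all genes tested, with calls at 0.05. The pseudocount understates changes of low genes. No count model was used, since the values are not counts. Replicates are labelled biological. The fit was tested on simulated data.

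All members were named. 1 gene was taken off the lists and is not reported here. From each list, up to 2 genes with the largest called change and a mean of at least 1 FPKM were named in siNCOA4 vs siControl, siControl+DFO vs siControl and siNCOA4+DFO vs siControl+DFO; Furin, Fn1, Bgn, Mmp19 and Mmp23 fall outside this rule and were named after their values were seen. Alternatives were pseudocounts of 1 and 0.01, no filter, a filter of 2 FPKM, a block for the replicate number, scaling by median of ratios or by quantiles, a fit of only the groups compared, moderation that was robust or had no trend, a fold above 2, and each library left out. Coordinates are from GENCODE vM21 (GRCm38), and promoters from RefSeq. Tables and figures were made with Python 3.11.15, pandas 2.3.3 and matplotlib 3.10.9.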

Additional observations from a re-analysis of the deposited data

Results flagged for a closer look

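The genes below were picked from the members and the list genes named by rule, because the knockdown effect differed between iron states. They had an interaction call (limma, adjusted p below 0.05), or differences of opposite sign without overlap of groups. Of all genes, 0.671% were called higher and 1.43% lower in the interaction. Mmp14 fell less under DFO than at normal iron, by a difference of 1.0255 in log2, which was not tested since the gene was put first for its fall at normal iron. Its level under DFO started from 61.6 FPKM, against 139 FPKM at normal iron.

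By the test of the difference itself (limma, adjusted over 11924 genes), the knockdown effect with DFO minus that without it was 0.6381 for Adamts1 (adjusted p = 0.0219), 0.8342 for Adamts2 (adjusted p = 0.0432), 1.1397 for Col1a1 (adjusted p = 0.0198), 1.0708 for Col3a1 (adjusted p = 0.042) and −0.5932 for Cd44 (adjusted p = 0.0358). These calls were not followed through the alternative runs. With single libraries left out, the interaction called 76 to 292 genes, against 250. Adamts1 was lower with the knockdown at both iron states. Col1a1, Col3a1 and Cd44 had differences of opposite sign at the 2 iron states, with no overlap between the groups compared, but 1 difference of each did not pass its own test: that of Col1a1 under DFO (0.35, adjusted p = 0.126, limma), of Col3a1 at normal iron (−0.36, adjusted p = 0.20, limma) and of Cd44 at normal iron (0.20, adjusted p = 0.182, limma). Col1a1 was below siControl in each siNCOA4 library (198 to 254 against 337 to 439 FPKM) and above siControl+DFO in each siNCOA4+DFO library (108 to 132 against 73.4 to 107 FPKM). Cd44 was at 32.4 to 35.9 FPKM in siNCOA4 against 27.2 to 31.7 FPKM in siControl, and at 58.7 to 72.7 FPKM in siNCOA4+DFO against 85.4 to 90.7 FPKM in siControl+DFO. Sh3pxd2b also had opposite signs (−0.37 at normal iron, adjusted p = 0.0649, and 0.29 under DFO, adjusted p = 0.113, limma), and neither these nor their difference of 0.6588 passed the test (adjusted p = 0.0638, limma).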

How the results depend on the processing

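Mmp14 kept its fall under DFO and its fall with the knockdown under DFO in every alternative run (log2 fold changes of −1.23 to −1.10 and of −1.06 to −0.86), and its knockdown difference at normal iron lay between −2.0456, with 1 library left out, and −1.87, with quantile scaling. With a fold change above 2 also required, calls over all genes fell to 212 for siNCOA4 vs siControl, 2244 for DFO in siControl cells, 249 for the knockdown under DFO, 1362 for DFO in siNCOA4 cells, 1809 for siNCOA4+DFO vs siControl and 97 for the interaction. The members called, Mmp14 included, were then 2 for DFO in siControl cells, 0 for the knockdown under DFO, 0 for DFO in siNCOA4 cells and 1 for siNCOA4+DFO vs siControl. For the knockdown under DFO, quantile scaling called 4 members (Mmp2 and Timp2 also, both higher) and changed the split over all genes from 742 higher and 1221 lower to 858 and 839 (it also turned for DFO in siControl cells, to 2865 higher and 3433 lower, for DFO in siNCOA4 cells, 2477 and 2782, and for siNCOA4+DFO vs siControl, 2813 and 3015), and the compared groups alone gave 1 member and 1242 genes. The interaction called 165 genes with quantile scaling and 164 without a trend, against 250. With single libraries left out, siNCOA4 vs siControl called 724 to 1652 genes, the knockdown under DFO 1201 to 2100 genes and 1 to 3 members, and the interaction 76 to 292 genes and 1 to 2 members, of which 1 is Mmp14, fixed by the choice of members. The lowest of these counts came without siNCOA4 replicate 2, siControl+DFO replicate 2 and siControl+DFO replicate 1, with 858 also without siNCOA4 replicate 3 and 1298 without siNCOA4+DFO replicate 3, and the cause was not tested. Uncalled differences near 0 changed sign: Timp1 in siNCOA4+DFO vs siControl (−0.03) ran from −0.1277 to 0.0903 with single libraries left out, and was 0.0378 without siControl replicate 2 and 0.0903 without siNCOA4+DFO replicate 3. Reck in siNCOA4+DFO vs siControl ran from −0.3428 to 0.077, the latter without siNCOA4+DFO replicate 3. Reck with the knockdown under DFO (0.001) was −0.0009 with a pseudocount of 0.01, −0.0051 with median-of-ratios scaling, −0.1755 with quantile scaling, and −0.2041, −0.0762 and −0.0083 without siNCOA4+DFO replicate 2, siControl+DFO replicate 1 and siNCOA4+DFO replicate 1, with 0.2157 as its highest value. The replicate numbers did not pair the libraries (correlation of deviations −0.127 to 0.116 over 18 same-numbered pairs, 2 above 0.1). With the replicate number as a block the counts of members called were unchanged, the counts over all genes were 1181, 6241, 1741, 4955, 5714 and 171, and the calls of Mmp28 (adjusted p = 0.0655) and Mmp11 (adjusted p = 0.0564) under DFO were lost. Depth limits Mmp3, Mmp9, Mmp13 and Mmp15, at 6 fragments or fewer in any library.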
